A study of Mus musculus with 2 samples.

Results

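The genes described here are 8 outputs of the circadian clock: the transcription factor genes Dbp, Tef, Hlf, Nfil3, Bhlhe40 and Bhlhe41, the ubiquitin-specific protease gene Usp2 and the uridine phosphorylase gene Upp2. They were found as the non-control probes whose gene name on the array was 1 of these 8, which gave 11 of 39422 usable probes and 8 of 31894 gene names. The members were chosen by their scaled signals on these same 2 arrays, so the values are descriptions and none is a test. Total RNA of mouse liver was labelled with Cy3 and hybridized to 1-colour Agilent arrays, 1 array per group. The first group was wild-type liver of the strain C57BL/6. The second was liver of C57BL/6 with the genotype Alb-Cre;CAG-floxed neo-Snail, where the albumin promoter, active in hepatocytes, drives the Cre recombinase. In that genotype name a floxed neo sequence, which Cre can remove, stands between the ubiquitous CAG promoter and the Snail transgene. The sources used here do not give the age, sex or feeding state of the animals, how many went into each RNA, or the time of day of collection. With 1 array per group, time of day and genotype cannot be told apart.

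The circadian clock is a transcriptional feedback loop in which BMAL1, the product of Arntl, and CLOCK or NPAS2 drive the Per and Cry genes and the nuclear receptor genes Nr1d1 and Nr1d2 through E-box sequences, and the products of these genes repress the drive. Dbp, Tef and Hlf are PAR bZIP factors, which are driven by the same loop and activate genes through D-box sequences, while NFIL3 represses from the same sites. In mouse liver Dbp and Nr1d1 transcripts peak during the day, and those of Arntl and Nfil3 peak at the opposite time. BHLHE40 and BHLHE41, also called DEC1 and DEC2, are repressors that bind E-boxes. USP2 removes ubiquitin from target proteins, among them clock proteins, and UPP2 is the liver form of uridine phosphorylase, which splits uridine into uracil and ribose phosphate.

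Each array carried 43020 non-control spots, and 50.7% and 54.0% of them were well above background, wild-type given first. A scaled signal is the processed signal divided by the 75th percentile of its array, which was 232.7 and 302.1, and a difference is log2 of the scaled signal in the library labelled Snail minus that in wild-type. The lowest signals called well above background were 13.8 and 12.9. Snai1, the gene of the transgene, had dim signals of 23.2 and 22.3; whether its probe reads the transgene is not stated, it checks no label, and the second array is called the library labelled Snail. Probes printed several times gave a technical spread of the difference of 0.19 (median SD) for signals under 100, 0.07 from 100 to 1000 and 0.04 above 1000. That spread holds array noise only, and no difference between animals was measured.

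Both Dbp probes and both Upp2 probes carried the largest differences among the 11 probes, and the latter part of each is shown, as the sequences from which those differences were read. Bases 31 to 60 are given 5′ to 3′, with AATAAA, the letters of the polyadenylation signal, in capitals where present. The letters were in 3 of the 11 probes, those of Usp2, Nfil3 and Dbp probe 1, and in 12.6% of all probes on the array (given strand only).
Dbp probe 1: caacacaatcctgAATAAAtcttgagaacc
Dbp probe 2: gaagaacgtcatgatgcagacaaatacatt
Upp2 probe 1: gagaaaaagctagactacttgaagagagca
Upp2 probe 2: attatcctcggggaaatatggccatccctt
Nfil3: agtttcAATAAAggattggtggcaagcaca
Usp2: tgtacagAATAAAtagtagctttgagaagg

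On the mm9 build, which the files use, Dbp probe 1 lay on the plus strand at chr7:52965461-52965520 and Dbp probe 2 upstream of it at chr7:52965322-52965381, with no shared base. Upp2 probe 1 lay at chr2:58632424-58632483 and probe 2 at chr2:58643020-58643079, also on the plus strand. The Nfil3 probe was at chr13:53062578-53062637 on the minus strand and the Usp2 probe at chr9:43903649-43903708 on the plus strand. The remaining probes were those of Tef at chr15:81657221-81657280 and Bhlhe40 at chr6:108616309-108616368, on the plus strand, and of Hlf at chr11:90200696-90200755 and Bhlhe41 at chr6:145811275-145811334 and chr6:145812652-145812711, on the minus strand. Each carried a RefSeq accession of its gene on the array, and exon positions on mm9 were not used here.

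Of the 8 genes, 7 were measured on both arrays. Dbp, Upp2 and Tef were lower by 2-fold or more in the library labelled Snail, 0 were higher by that size, and the other 4 lay within 2-fold. Beside these 3 of 7, the share of genes lower by 2-fold or more was 6.33% of the 15472 with a value on each array, and the share higher by that size was 3.98%. Nothing is read from this, since the same differences chose the members. The median difference of the 7 was -0.25, against -0.03 over all measured genes. Among all measured genes Upp2 ranked 4, Dbp 7 and Tef 627 counted from the lowest difference, and Nfil3 ranked 1187 counted from the highest.

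**Figure D1:**
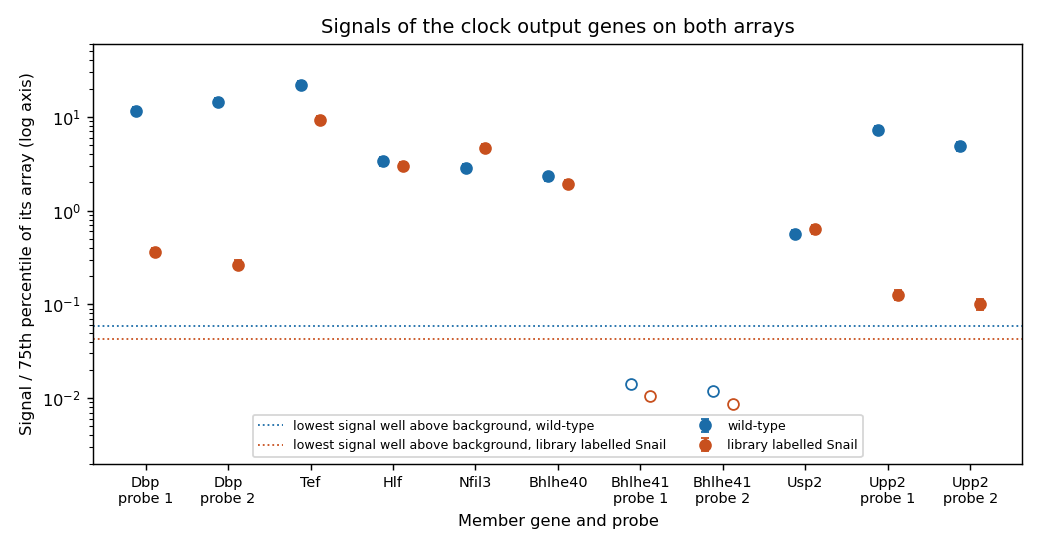
Scaled signal (signal over the 75th percentile of its array, log axis) of each of the 11 probes in wild-type liver (blue) and the library labelled Snail (orange), with the scanner software's error of the spot as bars. Open points are not well above background and dotted lines are the lowest signals well above background on each array. Levels compare only within a probe: those of Dbp and Upp2 lie 32.0-fold to 56.8-fold lower in orange, while those of Hlf, Bhlhe40 and Usp2 nearly coincide.

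Among the activators, Dbp, which encodes the D-box binding protein, was the PAR bZIP gene with the largest difference. Its probe 1 had a signal of 2707 ± 271 (the scanner software's error, 1 spot) in wild-type liver against 109.9 ± 11.4, which is 11.6 and 0.36 after scaling. Probe 2 had 3386 ± 339 and 80.4 ± 8.58, or 14.6 and 0.27 after scaling. Both probes were thus far lower in the library labelled Snail, and still 8.51 and 6.23 times the lowest signal called well above background on that array. The difference was -5.00 ± 0.21 by probe 1 and -5.77 ± 0.21 by probe 2, where the error is that of the 2 spots' signals, and the probes differed from each other by 0.77. Their mean, -5.39, is a 41.8-fold lower level. With the normexp background correction the Dbp difference was -4.57, and -5.00 where only the probe with the higher mean log2 signal was used.

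Tef, thyrotrophic embryonic factor, had signals of 5150 ± 515 for wild-type and 2815 ± 282 for the library labelled Snail, or 22.1 and 9.32 after scaling. The difference was -1.25 ± 0.20, or 2.38-fold lower. Hlf, hepatic leukemia factor, had 782 ± 78.2 and 911 ± 91.1, which scaled to 3.36 and 3.01. The Hlf difference of -0.16 ± 0.20 was within the scanner's error, though past the technical spread of 0.07 for signals from 100 to 1000. The PAR bZIP genes therefore did not differ by a like amount: Dbp was 41.8-fold, Tef 2.38-fold and Hlf 1.11-fold lower.

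Nfil3, the D-box repressor, went the other way from Dbp. Wild-type liver had a signal of 671 ± 67.2 and the library labelled Snail 1409 ± 141, or 2.89 and 4.66 after scaling. The difference was 0.69 ± 0.20, 1.62-fold higher and short of 2-fold, and it was the highest among the 7 measured genes.

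Of the E-box repressors, Bhlhe40 had a signal of 539 ± 54.0 in wild-type liver against 588 ± 58.8, scaled to 2.32 and 1.95, a difference of -0.25 ± 0.20. Bhlhe41 was not well above background by either probe on either array. Its signals were 3.28 and 2.77 in wild-type liver and 3.18 and 2.65 in the library labelled Snail, below the lowest signal called well above background, so no fold is given.

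The enzyme genes also parted. Usp2 had signals of 132 ± 13.5 for wild-type and 191 ± 19.3 for the library labelled Snail, or 0.57 and 0.63 after scaling. Its difference of 0.16 ± 0.21 was within the scanner's error, though past the technical spread of 0.07 for signals from 100 to 1000. Upp2 had 1683 ± 168 and 38.5 ± 4.83 by probe 1, scaled to 7.24 and 0.13. Its probe 2 had 1133 ± 113 and 30.5 ± 4.29, scaled to 4.87 and 0.10. The differences were -5.83 ± 0.23 and -5.59 ± 0.25, so the probes, which share no base, differed by 0.23, and their mean of -5.71 is 52.4-fold lower. In the library labelled Snail the Upp2 signals were only 2.98 and 2.36 times the lowest signal well above background. The difference was -4.17 with normexp, and Upp2 had no value where both arrays had to reach a signal of 100.

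**Figure D2:**
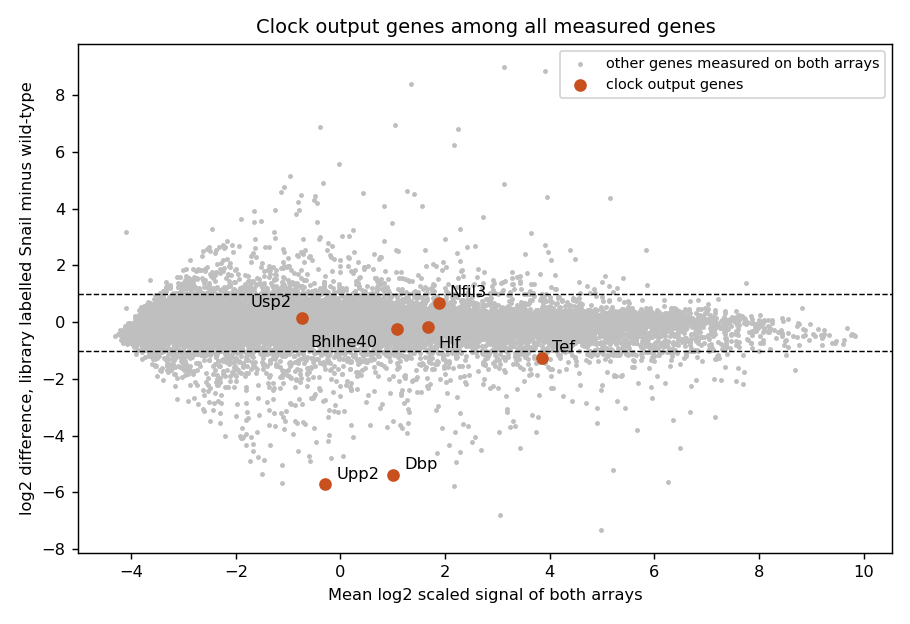
Each point is a gene measured on both arrays, with the mean log2 scaled signal across and the log2 difference (library labelled Snail minus wild-type) up; orange points are the 7 measured clock output genes and dashed lines mark 2-fold. Upp2 and Dbp lie at -5.71 and -5.39, near the lower edge of all genes, Tef at -1.25, and the others between the dashed lines.

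Processing moved the members little apart from the bright-to-dim pair Dbp and Upp2. Over the reported processing and 8 alternatives Tef ran from -1.25 to -1.10, so it was lower by 2-fold or more in each. Nfil3 ran from 0.69 to 0.77 and was short of 2-fold in each, Hlf from -0.16 to -0.09, Bhlhe40 from -0.25 to -0.17 and Usp2 from 0.09 to 0.18. In the authors' deposited value table the Dbp probes had differences of -4.95 and -5.73 and those of Upp2 -5.79 and -5.57.

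**Figure D3:**
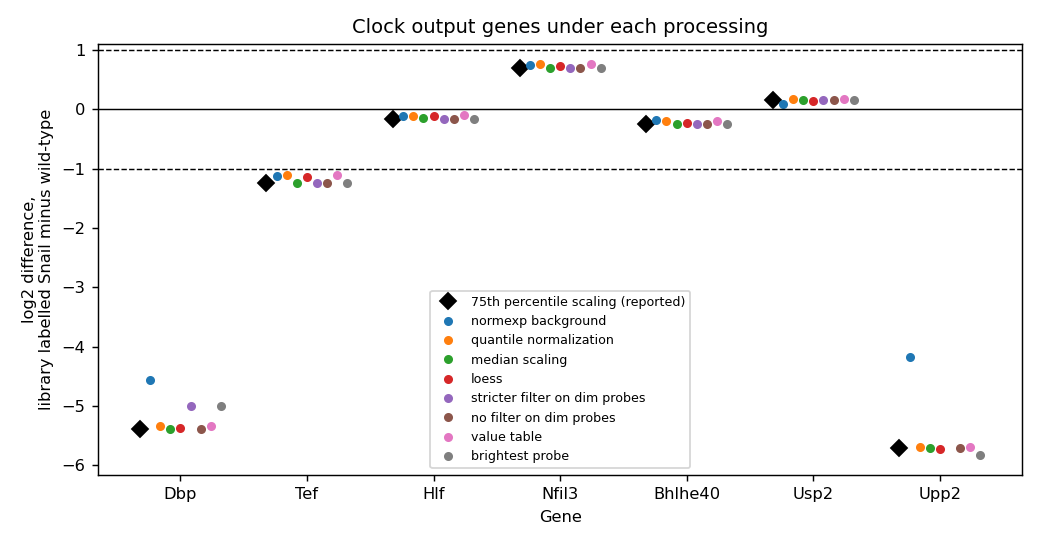
Log2 difference (library labelled Snail minus wild-type, vertical) of each measured clock output gene under the reported processing (black diamond) and 8 alternatives (coloured points), with dashed lines at 2-fold. Dbp stays between -5.39 and -4.57 and Upp2, with no value under the signal minimum of 100, between -5.83 and -4.17, with the normexp background as the point nearest 0 for each, and no gene crosses 0.

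By size of difference, the genes next to Dbp in the order of all measured genes were Upp2, Plekhb1 and the metallothionein gene Mt1 on the larger side, 52.4-fold, 50.8-fold and 49.4-fold lower, and Svip, Wfdc21 and Dntt on the smaller, 41.4-fold, 37.2-fold and 32.7-fold lower. The likeness is that of a single difference between 2 arrays. The Dbp probes differed from each other by 0.77, more than the distance from their mean to any of these 6 genes, so their order relative to Dbp is not resolved.

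Set beside these outputs, 13 of 19 core clock genes were measured, of which 3 repressors of the loop were lower by 2-fold or more and 0 genes were higher by that size. Over all measured genes the shares were 6.33% and 3.98%, and nothing is read from the counts. Nr1d1, which encodes REV-ERB alpha, had a signal of 374 in wild-type liver against 43.7, 11.1-fold lower; its difference of -3.47 was -2.38 with normexp. Nr1d2, its paralogue, was 3.59-fold lower, between Dbp and Tef. Cry2, a cryptochrome, was 2.36-fold lower, close to Tef, with a difference of -1.24 that was -0.93 with normexp. The positive arm had differences above 0, as Nfil3 did: Arntl, with signals of 187 and 428, was 1.76-fold higher, and Clock, with 259 and 445, was 1.32-fold higher. Npas2, with 15.8 and 34.9, had 0.77, but 0.02 with normexp.

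The period genes did not differ alike: Per1 had a difference of 0.28, while Per2 and Per3 passed background in wild-type liver alone and had signals of 17.0 and 23.6 there against 13.0 and 13.7, by observed signals 1.71-fold and 2.24-fold lower. Rora, Csnk1d, Csnk1e, Btrc, Timeless and Arntl2 had differences between 0.16 and 0.52; those of Btrc, Arntl2 and Timeless turned below 0 under at least 1 other processing. Fbxl21 passed background in the library labelled Snail alone, where it was at least 1.15-fold higher, and Cry1, Rorb and Ciart did so on neither array. The median of the 13 was 0.33, against -0.25 for the 7 outputs. With no filter on dim probes it was -0.14 over 19 core clock genes and -0.36 over 8 outputs, against -0.47 over all genes.

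**Figure D4:**
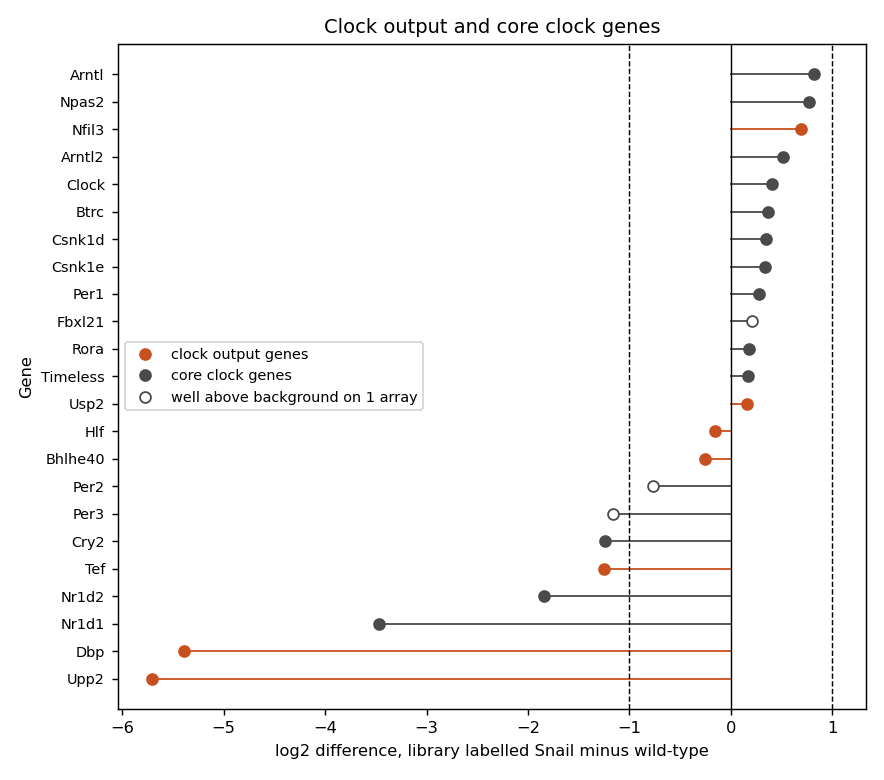
Log2 difference (library labelled Snail minus wild-type, horizontal) of each clock output gene (orange) and core clock gene (grey), in order of size; open points are genes well above background on 1 array, and dashed lines mark 2-fold. Upp2, Dbp, Nr1d1, Nr1d2, Tef and Cry2 lie below -1, together with Per3 as an open point, and Arntl, Npas2 and Nfil3 are the highest, between 0.69 and 0.82.

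Among 9 other genes known to be rhythmic in liver, 2 were lower and 2 higher by 2-fold or more. Rgs16, a regulator of G protein signalling, had 323 in wild-type liver against 21.6, dim on the second array as Dbp and Upp2 were. It was 19.4-fold lower, and its difference of -4.28 was -2.45 with normexp. Noct, which encodes nocturnin, was 3.14-fold lower, and the glycogen synthase gene Gys2 had -0.78. Cdkn1a, a cell cycle inhibitor, was 5.82-fold higher, where its difference of 2.54 was 1.76 with normexp and 1.03 with no filter on dim probes. The tetraspanin gene Tspan4 was 2.17-fold higher.

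Of 8 measured genes described as targets of DBP, TEF and HLF, 2 were lower and 0 higher by 2-fold or more, 7 had a difference below 0, and the median was -0.63. The hepatocyte markers, a list that shares Alb, had 7 of 7 below 0 and a median of -0.63 as well. Under quantile normalization the medians were -0.48 for the targets and -0.02 for the markers. With normexp they were -0.54 and -0.53, with median scaling -0.63 and -0.62, and with loess -0.50 and -0.28. Whether the targets followed DBP, TEF or HLF was not tested. Cyp7a1, the rate-limiting enzyme of bile acid synthesis, had signals of 905 and 317, 3.71-fold lower, and Cyp2a4, a steroid hydroxylase whose probes may also bind near-identical Cyp2a transcripts, was 2.50-fold lower. The nuclear receptor gene Ppara had -0.83, Nr1i3, which encodes CAR, -0.64, and Alb -0.63, which was 0.04 under quantile normalization and in the authors' deposited value table. Alas1, the first enzyme of heme synthesis, was above 0, at 0.47. In the C/EBP family, bZIP factors related to these activators, Cebpe was 2.93-fold higher and Ddit3 2.09-fold, a difference of 1.06 that was 0.53 with normexp, Cebpa had -0.78, and 0 of 6 were lower by 2-fold or more.

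Upp2 was the lowest of the uridine and pyrimidine genes measured here. Of 20 others in salvage, breakdown and synthesis 16 were measured; 3 of them were lower and 1 higher by 2-fold or more, and the median was -0.20. Tk1, the cytosolic thymidine kinase, was 5.90-fold lower and the nucleoside transporter gene Slc29a1 3.69-fold. The uridine kinase gene Uck1 was 2.09-fold lower, with -1.06 that lay between -0.96 and -0.90 under 4 other settings, and Tymp, thymidine phosphorylase, was 2.01-fold higher. Uprt and Cad passed background in wild-type liver alone and were at least 4.62-fold and at least 2.83-fold lower. Upp1, the broadly expressed paralogue of Upp2, lay on the other side of 0 from it, with signals of 68.4 and 142 and a difference of 0.68.

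Usp2 sat among the other ubiquitin-specific protease genes, of which 34 of 53 were measured and 0 were 2-fold apart in either direction. Their differences ran from -0.57 for Usp14 to 0.64 for Usp24, with a median of 0.09, and the Usp2 value of 0.16 lay inside that range.

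Body temperature and glucocorticoids also set rhythms in liver, and clock outputs can follow them. Of 7 measured heat and cold response genes, Dnajb1 was 2.09-fold higher, 0 were lower by 2-fold or more, and the cold-inducible genes went apart. Cirbp had -0.73 and Rbm3 0.51, with its 3 probes spanning 1.07 and a value of -0.03 by the brightest probe. Of 12 glucocorticoid response genes 4 were lower and 2 higher by 2-fold or more. The list as a whole had a median of -0.01, with 6 genes below 0 and 6 above. The metallothionein genes Mt2 and Mt1 were 159.5-fold and 49.4-fold lower, Fkbp5 5.69-fold and Tat 2.51-fold lower, and Lcn2, lipocalin 2, was 8.93-fold higher. The phosphatase gene Dusp1 was 2.41-fold higher, a difference of 1.27 that was 0.96 with normexp.

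**Figure D5:**
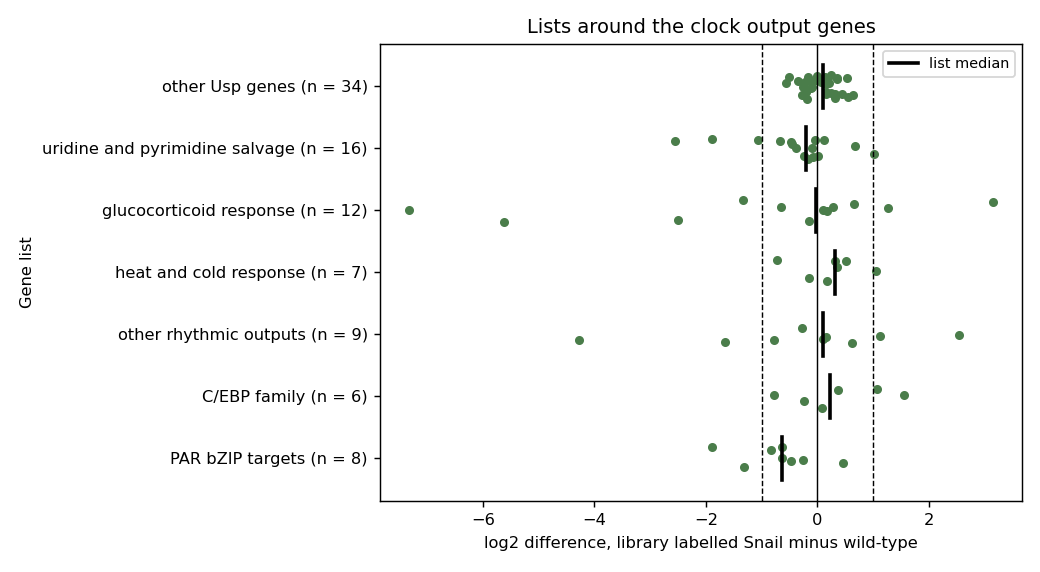
Log2 difference (library labelled Snail minus wild-type, horizontal) of each measured gene in 7 lists around the clock output genes, with the list median as a black bar and dashed lines at 2-fold. Points of the Usp list all lie within 2-fold, and the glucocorticoid list spreads from -7.32 to 3.16.

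As a check of the tissue, 7 of 7 hepatocyte markers on the array were well above background in both livers, with differences from -1.33 to -0.10, of which those of Alb, Hnf4a and Asgr1 turned above 0 under quantile normalization and that of Apoa2 in the authors' deposited value table alone. Their summed scaled signal went from 3876 for wild-type to 2651, a ratio of 0.68, with most of the signal from Alb and Apoa2. The median difference of the 7 markers was -0.63, and -0.02 under quantile normalization. In bulk tissue fewer cells of a type and less RNA per cell cannot be told apart. The summed signal of neutrophil markers was 2.14 and 5.98, with 2 of 3 measured higher by 2-fold or more, and that of Kupffer cell markers 75.2 and 94.6. That of stellate cell markers was 51.1 and 27.2, most of it from Dcn, which was 1.92-fold lower. Of 5 measured stellate cell markers 4 had a difference below 0, and the median was -0.79. Lrat, with signals of 123 and 79.5, was 2.01-fold lower, a difference of -1.01 that was -0.64 with normexp. The collagen gene Col1a1, with signals of 51.3 and 166, was 2.50-fold higher, a difference of 1.32 that was 0.74 with normexp. Of the 5 cholangiocyte markers, summing to 0.42 and 0.76, Krt19, Krt7 and Epcam were not well above background on either array. Sox9, with signals of 30.2 and 114, was 2.92-fold higher, a difference of 1.55 that was 0.64 with normexp, and Spp1, with 49.8 and 96.4, was 1.49-fold higher. All 4 adipocyte markers were not well above background on either array. The part of these cell types in the clock output values was not tested.

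Promoter sequences before the start sites were searched because Dbp, Upp2 and Tef were lower together. They were taken from RefSeq on the build GRCm38.p6, where 7 of the 8 genes had a window, 9 windows in all. The 250 bases before each start were searched on both strands for the E-box CACGTG, the D-box forms TTATGTAA and TTACGTAA, and the cAMP response element TGACGTCA, none of which holds another. The E-box was in 3 of the 9 windows, both of Tef and that of Bhlhe41, and in 6.02% of all 32851 windows. The D-box was in 0 of the 9 and in 0.93% of all, and the cAMP response element in 1, that of Hlf, and in 1.55% of all. Of 24 core clock windows 3 held the E-box, 2 the D-box and 0 the cAMP response element. Nothing is read from these counts, and both Tef windows belong to 1 gene. Windows of the 3 lower genes are given 5′ to 3′ on the strand of the gene, with E-box letters in capitals. A further Upp2 window is described below but not printed.
Dbp, chr7:45704997-45705246, plus strand: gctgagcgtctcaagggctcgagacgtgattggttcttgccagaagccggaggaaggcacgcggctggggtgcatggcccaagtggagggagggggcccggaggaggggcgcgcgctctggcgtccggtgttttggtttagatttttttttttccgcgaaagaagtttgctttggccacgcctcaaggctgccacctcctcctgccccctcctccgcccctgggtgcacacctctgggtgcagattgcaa
Tef, chr15:81802423-81802672, plus strand: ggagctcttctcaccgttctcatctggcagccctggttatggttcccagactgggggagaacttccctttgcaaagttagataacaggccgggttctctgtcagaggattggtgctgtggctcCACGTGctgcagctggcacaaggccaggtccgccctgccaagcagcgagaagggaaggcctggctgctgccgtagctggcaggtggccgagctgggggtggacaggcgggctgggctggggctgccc
Tef, chr15:81811164-81811413, plus strand: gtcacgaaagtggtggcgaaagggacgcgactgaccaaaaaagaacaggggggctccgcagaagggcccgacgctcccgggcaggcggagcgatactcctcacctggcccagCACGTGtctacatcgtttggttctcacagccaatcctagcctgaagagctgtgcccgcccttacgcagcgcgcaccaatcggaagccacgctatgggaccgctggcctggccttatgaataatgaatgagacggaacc
Upp2, chr2:58754934-58755183, plus strand: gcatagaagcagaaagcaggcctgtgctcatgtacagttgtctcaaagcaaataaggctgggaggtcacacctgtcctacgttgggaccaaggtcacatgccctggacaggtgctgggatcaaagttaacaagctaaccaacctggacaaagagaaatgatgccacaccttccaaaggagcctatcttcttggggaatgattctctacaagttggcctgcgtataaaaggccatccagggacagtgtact

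The E-box ended 121 bases before the first Tef start and 132 bases before the other. No searched letters stood in the windows of Dbp and Upp2, which says only that they are not in these 250 bases. A further Upp2 start, at a window of 73.2% GC against 49.2% for the window shown, held none either. The windows of Usp2 and Nfil3 held none of the motifs. In the window of Hlf the cAMP response element ended 1 base before the start, and in that of Bhlhe41 the E-box ended 147 bases before it.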

How the data were processed

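RNA of 2 liver samples was hybridized to 2 arrays on 1 slide, scanned together. Scanner files were written by Agilent Feature Extraction 9.5.1.1, as credited to the submitters' processing notes, and hold spot intensity with background subtracted and gradients removed within each array, per the file headers. A deposited value table also holds intensity; its scale, centring and normalization are unstated, both column medians are 17.3, and each column followed its own array (correlation of log2 values 1.00). It served as an alternative, but not one separate from quantile normalization: for Alb and Mt2 both gave the same differences, 0.04 and -7.06.

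The members and lists were chosen with earlier results of these data known. Processed signals were scaled to the 75th percentile of non-control spots and put on log2, and 287 spots marked as outliers on either array were left out. For a gene with several probes, those well above background on each array were averaged. A gene that passed background on 1 array has a bound against the lowest passing signal of the other, or the observed ratio where its own dim signal was above that. RefSeq accessions (GRCm38.p6 table) named 66.1% of 39429 probes, and the array's own names the rest. With 1 array per group no test was run, 2-fold is a fixed size, and precision is limited by the number of arrays. Named are the 8 members, the core clock list, up to 5 genes by size from each other list, the Usp extremes and the 6 genes next to Dbp; Alas1, Tymp, Upp1, Dusp1 and the marker names were picked after their values were seen. Some genes are not reported here. The calculation was tested on simulated data. Alternatives (limma 3.58.1 in R 4.3.3 where needed) were normexp with offset 50, quantile, median and loess scaling, a signal minimum of 100, no filter on dim probes, the value table and the brightest probe.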

Additional observations from a re-analysis of the deposited data

How the results depend on the processing

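The counts of clock output and core clock genes lower by 2-fold or more, 3 of each, stayed within 1.5 times under the 8 alternatives, and 0 were higher by that size under any. The core clock count was 2 with normexp and under the signal minimum of 100, and 4 with no filter on dim probes. Over all genes, 980 of 15472 were lower by 2-fold or more in the reported processing and 576 of 15472 with normexp. The count was 605 of 10354 under the signal minimum of 100 and 1173 of 31894 with no filter. Under the signal minimum of 100 the count of clock output genes was 2, because Upp2 had no value there. No clock output gene changed direction. Of 143 listed genes 24 changed sign under some alternative, and 0 of these were 2-fold apart; the largest was Alb. Without a filter the median of all genes was -0.47, since dim signals were set to the lowest signal well above background. Folds of Upp2, Rgs16 and Nr1d1, which rest on dim signals in the library labelled Snail, were smaller with normexp, at -4.17, -2.45 and -2.38 on the log2 scale. The normexp setting adds an offset of 50 to each signal, which by itself makes a fold that rests on a dim signal smaller. No paired analysis was possible because each group has 1 array. No left-out replicate could be tried for the same reason.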

Other observations

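The protein-coding genes on either side of each clock output gene, by the order in the RefSeq table, were chosen for a look after the values were seen. Of 16 such neighbours 12 were measured on both arrays, of which 1 was lower by 2-fold or more and 0 were higher by that size. Over all measured genes the shares were 6.33% and 3.98%, so nothing is read from this count. Sphk2, a sphingosine kinase gene next to Dbp, was 2.07-fold lower in the library labelled Snail, a difference of -1.05 that is just past 2-fold. Car11, on the other side of Dbp, had a difference of -0.26. Acvr1, next to Upp2, had -0.15, while Ccdc148 on the other side passed background in that library alone. The neighbours of Tef, Zc3h7b and Tob2, had -0.08 and 0.64.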
